A study of Homo sapiens with 8 samples.

Results

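The response to tumour necrosis factor alpha (TNF) that 2 human chordoma cell lines had in common was described from all 8 arrays of the study. U-CH1 and MUG-Chor1 are established lines from chordoma, a malignant bone tumour of the axial skeleton that carries features of the embryonic notochord. Each line gave 3 control arrays, from monolayers grown under normal conditions, and 1 array from cells kept with 10 ng/mL human recombinant TNF for 1 week, with 3 additions a week. All groups shared gelatin-coated culture ware and serum-containing medium. The labels name no vehicle and give no culture time for the controls, so an effect of culture time cannot be told apart from that of TNF. The genes were chosen by an additive model of cell line and TNF over 2 TNF and 6 control arrays. Of 16986 genes tested, 422 (2.48%) passed at an adjusted p under 0.05, and these are called changed throughout. Levels are log2 RMA signals, differences are TNF minus control on that scale, and a shared change is the TNF term of the additive model.

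TNF binds TNFR1 (TNFRSF1A), whose adapters and ubiquitin ligases (TRADD, TRAF2, BIRC2, BIRC3) activate the IKK complex and free NF-kB dimers to enter the nucleus. NF-kB drives chemokine, cytokine, adhesion and antigen presentation genes, together with its own brakes NFKBIA and TNFAIP3, so that the early response is normally damped. Under lasting TNF the noncanonical subunits RELB and NFKB2 also take part. Chordoma cells are defined by the notochord transcription factor brachyury (TBXT) and express simple keratins, CD24 and a cartilage-like matrix.

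The array medians lay between 2.52 and 2.63, and controls of 1 line correlated with each other at 0.959 to 0.981 over the genes tested, against 0.930 to 0.947 for a TNF array with the controls of its line. MUG-Chor1 control 3 stood apart from controls 1 and 2 in some genes named below, such as CCL2 and ICAM1. Whether the 3 controls of a line were separate cultures is not stated in the labels, so each p-value reflects the spread among these samples alone, possibly a technical one. Each TNF group is a single array, and precision is limited by how few arrays there are.

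Of the 422 changed genes, 264 rose (1.55% of those tested) and 158 fell (0.93%). After quantile normalization the split was 201 rises and 190 falls. A gene with opposite signs in the lines could hardly pass this model, so the shared sign of all 422 says little by itself about the lines acting alike. On all 422 the TNF array also lay outside the range of its own line's 3 controls in both lines. The same arrays chose these genes, so this too says little by itself. That limit holds for each called gene described this way below. Over all genes tested, 15% lay above the controls in both lines and 8.85% lay below them. Of the 16986 genes, 303 passed the filter only through the TNF arrays, so they were admitted only by being high with TNF. They include members of several lists below, and their rises support nothing. Changes reached at least 2-fold in 342 genes, 4-fold in 81 and 8-fold in 19, and the smallest called change was 0.77.

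A called gene counted as evenly changed where the smaller of its line differences was at least 0.7 of the larger, which held for 188 genes (1.11% of those tested), 130 of the rises and 58 of the falls. TMTC1 lay just inside this limit at a ratio of 0.70 and YAP1 just outside at 0.698. TAP1 lay just inside the threshold on adjusted p at 0.0498 and RIMKLA just outside at 0.0501. The rises had near-equal medians in the lines, 1.24 in U-CH1 and 1.25 in MUG-Chor1. Falls were deeper in MUG-Chor1, with medians of -1.10 in U-CH1 and -1.80 in MUG-Chor1. Of the falls with a ratio under 0.5, 51 were larger in MUG-Chor1 and 5 in U-CH1, while rises of that kind divided into 25 and 22. The additive model counts a difference between lines as residual spread and so favours genes that moved alike. The number of evenly changed genes and the near-equal medians of the rises therefore say little by themselves about the lines acting alike. Even does not mean shown to be equal. The 95% interval of the difference between lines had a median half-width of 0.98 among the evenly changed genes. For 3 of them it lay within 0.5 times the shared change either way.

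**Figure D1:**
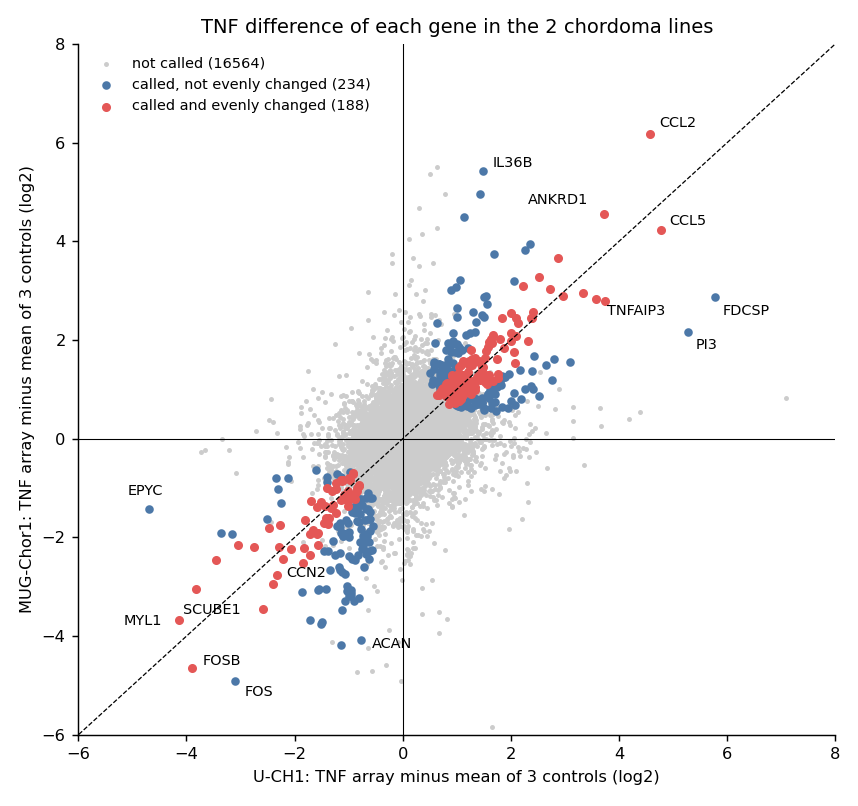
Each point is 1 of the 16986 genes tested, with its TNF minus control difference (log2) in U-CH1 on the x axis and in MUG-Chor1 on the y axis, and the dashed line marks equal differences. Red points are the 188 called and evenly changed genes, blue points the other called genes and grey points the rest; CCL2 and FOSB lie far out near the dashed line, while FDCSP, IL36B, EPYC and ACAN lie off it.

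The number of calls depended on single arrays. Without MUG-Chor1 control 1 there were 199 called genes (127 higher, 72 lower, 103 evenly changed), without MUG-Chor1 control 2 251 (152, 99 and 119), and without U-CH1 control 1 240 (138 higher, 102 lower). Without U-CH1 control 2, 170 genes were called higher. Leaving out a TNF array leaves the test of the other line alone, where U-CH1 had 216 calls (1.27%; 155 higher, 61 lower), 107 of them among the 422. MUG-Chor1 had 489 calls (2.88%; 250 higher, 239 lower), 211 of them among the 422. A core of 59 genes (37 higher, 22 lower, 41 of them evenly changed) passed whichever of the 8 arrays was left out. It holds CCL2, CCL5, ANKRD1, IL32, TNFAIP3, VCAM1, CTSS, MSC, SFRP2, GDF15, PDCD1LG2 and NFKB2 among the rises and FOSB, FOS, MYL1, SCUBE1, CCN2, ETV1, LGR6, MTMR7, COL6A3 and GHR among the falls.

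Chemokines led the evenly shared rises. CCL2, which attracts monocytes, read 2.52, 1.94 and 2.40 in the U-CH1 controls and 6.86 with TNF, and 1.21, 0.99 and 3.11 in the MUG-Chor1 controls and 7.94 with TNF. Both TNF arrays stood far above every control of their line, and the shared change was 5.37 ± 0.51 (SE; adjusted p = 0.000686). CCL5, which attracts T cells and monocytes, read 4.59, 4.57 and 4.27 in the U-CH1 controls and 9.25 with TNF, and 3.50, 3.51 and 5.43 in the MUG-Chor1 controls and 8.38 with TNF, again without overlap. Its shared change was 4.50 ± 0.43 (SE; adjusted p = 0.000707). CXCL8, a neutrophil attractant, rose evenly by 1.68 ± 0.20 (SE; adjusted p = 0.00235), with 1.75 in U-CH1 and 1.62 in MUG-Chor1. CXCL5 rose by 1.83 ± 0.32 (SE; adjusted p = 0.0148), with 1.01 in U-CH1 and 2.65 in MUG-Chor1. These were 4 of 20 tested chemokines, 0 fell, and the list's median was 0.28 against 0.05 over all genes. The T-cell chemokine gene CXCL10 did not pass, at 7.09 in U-CH1 and 0.82 in MUG-Chor1 (adjusted p = 0.0607). CXCL5 missed the threshold without the MUG-Chor1 TNF array (adjusted p = 0.159).

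Cytokine genes rose in 7 of 28 tested cases (25.0%, against 1.55% of all genes tested) and fell in 0 (median 0.44 against 0.05). Of the 28, 3 passed the filter only through the TNF arrays, IL1B among them. IL32, a proinflammatory cytokine, read 3.70, 3.12 and 2.33 in the U-CH1 controls and 6.80 with TNF, and 2.88, 3.50 and 4.00 in the MUG-Chor1 controls and 6.26 with TNF. Its shared change was 3.27 ± 0.38 (SE; adjusted p = 0.00195), and no control reached either TNF array. IL6, the main inducer of the acute phase response, read 4.03, 5.11 and 4.87 and then 7.18 in U-CH1, and 2.96, 2.38 and 3.96 and then 6.38 in MUG-Chor1. The TNF array was the highest of its line in both, with a shared change of 2.90 ± 0.40 (SE; adjusted p = 0.00476). CSF1, the macrophage growth factor, rose by 2.21 ± 0.28 (SE; adjusted p = 0.00334), IL1RN, the natural blocker of the IL-1 receptor, by 1.44 ± 0.30 (SE; adjusted p = 0.0334), and IL1B by 0.90 ± 0.20 (SE; adjusted p = 0.0451). IL36B, an IL-1 family cytokine, rose by 3.46 ± 0.66 (SE; adjusted p = 0.024), but by 1.49 in U-CH1 and 5.43 in MUG-Chor1. TNF itself did not pass, at 1.10 in U-CH1 and -0.33 in MUG-Chor1 (adjusted p = 0.585). IL6, IL1RN, IL1B and IL36B missed the threshold without the MUG-Chor1 TNF array (adjusted p = 0.0604 to 0.262), and IL1RN and IL1B did so without the U-CH1 TNF array (adjusted p = 0.0891 to 0.24). IL1RN, IL1B and IL36B each missed it without at least 1 of U-CH1 controls 1, 2 and 3 and MUG-Chor1 controls 1 and 2 (adjusted p = 0.0516 to 0.0911). IL1B also missed it with array weights or after quantile normalization (adjusted p = 0.0516 to 0.0556).

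The promoters of 3 evenly shared rises are shown because they hold matches to the NF-kB consensus. They are the largest evenly shared rises with a match among those whose RefSeq window (build GRCh38.p14) was searched; CCL2, CCL5, CTSS and MSC were not searched. The sequences cover the bases before the annotated start, 5′ to 3′ on the gene's strand. Capitals mark the matched letters, on either strand; in IL32 they are a pair of overlapping matches, and RefSeq lists several starts for IL32, of which the one listed first was used.
IL32 (chr16:3065153-3065402, plus strand): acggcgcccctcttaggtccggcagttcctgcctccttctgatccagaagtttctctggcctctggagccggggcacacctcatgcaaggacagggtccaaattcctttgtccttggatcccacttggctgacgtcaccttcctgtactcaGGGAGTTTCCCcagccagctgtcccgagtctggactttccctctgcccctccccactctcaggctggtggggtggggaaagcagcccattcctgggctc
TNFAIP3 (chr6:137867009-137867258, plus strand): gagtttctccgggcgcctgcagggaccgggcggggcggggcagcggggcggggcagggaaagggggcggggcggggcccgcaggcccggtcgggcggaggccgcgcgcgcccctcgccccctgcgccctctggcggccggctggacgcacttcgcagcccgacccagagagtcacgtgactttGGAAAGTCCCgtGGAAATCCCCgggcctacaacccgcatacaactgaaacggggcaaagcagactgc
IL6 (chr7:22726950-22727199, plus strand): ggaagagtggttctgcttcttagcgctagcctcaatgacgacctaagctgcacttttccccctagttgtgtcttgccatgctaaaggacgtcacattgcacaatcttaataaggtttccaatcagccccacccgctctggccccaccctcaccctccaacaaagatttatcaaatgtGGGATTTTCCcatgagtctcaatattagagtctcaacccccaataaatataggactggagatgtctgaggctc
The matches end 89 bases before the start in IL32, 46 in TNFAIP3 and 64 in IL6. A match is a run of letters and not a measured binding site.

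Across the 12422 tested genes with a promoter window (250 bases before to 50 after the start), 6.94% held an NF-kB consensus match. The share was 16.2% of called rises (33 of 204), 17.5% of the evenly changed rises (17 of 97) and 8.04% of called falls (9 of 112). Every motif was searched on both strands and matches could overlap. The AP-1 letters TGANTCA stood in 5.31% of all windows, 8.82% of rises and 7.14% of falls. The CArG box, bound by serum response factor, stood in 1.16%, 0.49% and 1.79%, and in none of the evenly changed genes' windows. The interferon response core stood in 2.83%, 3.92% and 3.57%. The TEAD letters GGAATG stood in 11.4%, 13.7% and 15.2%, and in 21.6% of the evenly changed falls (8 of 37). These shares are descriptions with no test, and the motif set was chosen with results known.

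Of the TNF receptor complex, 3 of 20 tested genes rose and 0 fell (median 0.43 against 0.05). TRAF1, an adapter induced by NF-kB, rose evenly by 1.92 ± 0.27 (SE; adjusted p = 0.00584). TRAF3, which restrains noncanonical NF-kB, rose by 1.5 ± 0.27 (SE; adjusted p = 0.0186) and BIRC2, the ubiquitin ligase cIAP1, by 1.31 ± 0.22 (SE; adjusted p = 0.0124). The receptor TNFRSF1A did not pass, at -0.19 in U-CH1 and -0.36 in MUG-Chor1 (adjusted p = 0.559). Among genes outside that list, chosen after their values were seen, ADAM17, the protease that sheds TNF and its receptors, rose by 0.85 ± 0.18 (SE; adjusted p = 0.0337) and LITAF by 0.92 ± 0.20 (SE; adjusted p = 0.0362). TRAF1, ADAM17 and LITAF missed the threshold without the MUG-Chor1 TNF array (adjusted p = 0.0604 to 0.232), and TRAF3, BIRC2, ADAM17 and LITAF did so without the U-CH1 TNF array (adjusted p = 0.124 to 0.198). ADAM17 and LITAF each missed it without at least 1 of U-CH1 controls 1 and 2 and MUG-Chor1 controls 1 and 2 (adjusted p = 0.0578 to 0.0809).

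Of the 5 NF-kB subunits 3 rose and 0 fell. NFKB2, the noncanonical p100/p52 subunit, read 5.19, 5.0 and 4.85 in the U-CH1 controls and 6.59 with TNF, and 5.21, 5.50 and 5.17 in the MUG-Chor1 controls and 6.58 with TNF. It rose evenly by 1.43 ± 0.19 (SE; adjusted p = 0.00418), with each TNF array above all controls. Its partner RELB rose by 1.58 ± 0.29 (SE; adjusted p = 0.02) and NFKB1, the p105/p50 subunit, by 1.14 ± 0.21 (SE; adjusted p = 0.0186). RELB missed the threshold without the MUG-Chor1 TNF array (adjusted p = 0.0502), and RELB and NFKB1 did so without the U-CH1 TNF array (adjusted p = 0.164 to 0.183). RELB also missed it without MUG-Chor1 control 1 (adjusted p = 0.0509).

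NF-kB inhibitors and deubiquitinases rose in 4 of 16 cases (25.0%, against 1.55% of all genes tested) and fell in 0 (median 0.45). Only through the TNF arrays did 1 of the 16 pass the filter. TNFAIP3, the ubiquitin-editing enzyme A20, read 4.75, 4.99 and 4.81 in the U-CH1 controls and 8.44 with TNF, and 4.65, 5.36 and 5.58 in the MUG-Chor1 controls and 8.03 with TNF. The shared change of 3.21 ± 0.26 (SE; adjusted p = 0.000487) was a 9.25-fold rise, and no control came near the TNF arrays. TNIP1, which helps A20, rose evenly by 1.54 ± 0.23 (SE; adjusted p = 0.00669). CYLD, a deubiquitinase, rose by 1.52 ± 0.24 (SE; adjusted p = 0.00986) and the inhibitor gene NFKBIE by 1.69 ± 0.32 (SE; adjusted p = 0.0217), neither evenly. NFKBIA, the classical inhibitor, read 6.17, 5.87 and 6.45 in the U-CH1 controls and 8.17 with TNF. In the MUG-Chor1 controls it read 7.28, 7.86 and 7.83, against 7.50 with TNF. The TNF array thus lay above the controls in U-CH1 and among them in MUG-Chor1, and the shared change of 0.93 did not pass (adjusted p = 0.294). The difference between lines was -2.16 (95% interval -3.19 to -1.12; adjusted p = 0.0976). CYLD missed the threshold without the MUG-Chor1 TNF array (adjusted p = 0.129), and TNIP1 and NFKBIE did so without the U-CH1 TNF array (adjusted p = 0.059 to 0.188). NFKBIE also missed it without U-CH1 control 1 (adjusted p = 0.0534). NFKBIA passed without the MUG-Chor1 TNF array (adjusted p = 0.0168).

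**Figure D2:**
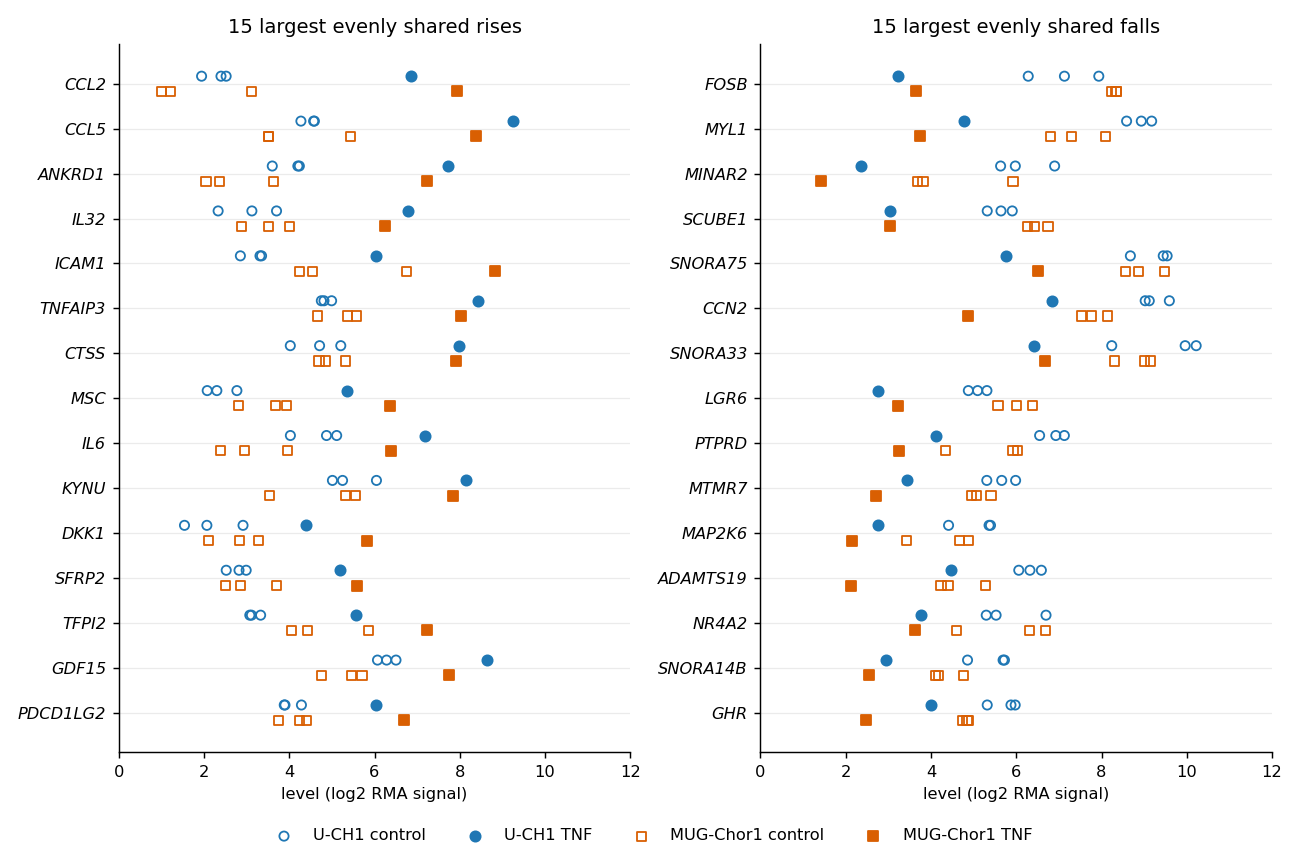
Levels (log2 RMA signal, x axis) of the 15 largest evenly shared rises (left) and falls (right), 1 gene per row, with open symbols for the 3 controls and filled symbols for the TNF array of U-CH1 (circles) and MUG-Chor1 (squares). Each filled symbol lies outside the open symbols of its own line.

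Receptors for cytokines and TNF-family ligands rose in 3 of 36 cases (8.33%) and fell in 1 (2.78%), with a median of 0.42. The shares of all genes tested were 1.55% and 0.93%. IL7R, the interleukin 7 receptor, rose by 2.22 ± 0.32 (SE; adjusted p = 0.00584), with 1.55 in U-CH1 and 2.89 in MUG-Chor1. IFNAR2, a subunit of the type I interferon receptor, rose evenly by 1.21 ± 0.27 (SE; adjusted p = 0.0449). TNFRSF11B, the decoy receptor osteoprotegerin, fell by 1.47 (SE 0.30; adjusted p = 0.0312). The third rise was TNFRSF9, 1 of 2 tested members that passed the filter only through the TNF arrays. IL7R and IFNAR2 missed the threshold without the MUG-Chor1 TNF array (adjusted p = 0.0737 to 0.295), and IFNAR2 and TNFRSF11B did so without the U-CH1 TNF array (adjusted p = 0.14 to 0.317). IFNAR2 and TNFRSF11B each missed it without at least 1 of U-CH1 controls 1, 2 and 3 and MUG-Chor1 controls 1, 2 and 3 (adjusted p = 0.0513 to 0.0897). IFNAR2 also missed it with no filter or after quantile normalization (adjusted p = 0.0567 to 0.0638).

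Genes that sense or relay microbial signals, a group chosen after its values were seen, rose in 5 of 13 cases and fell in 0. Over all genes tested 1.55% rose, and NOD2 passed the filter only through the TNF arrays. Of the 8 members not called, TLR1, TLR3 and MYD88 lay above the controls in both lines and NOD1 below them. TLR4, TLR5 and IRAK1 moved in opposite directions in the lines, TLR5 by 1.87 in U-CH1 and -0.79 in MUG-Chor1. TICAM1 lay above the controls in U-CH1 only. IRAK2, a kinase below Toll-like and IL-1 receptors, rose evenly by 2.26 ± 0.20 (SE; adjusted p = 0.000611). TLR2 rose by 1.13 ± 0.24 (SE; adjusted p = 0.0398), TLR6 by 1.01 ± 0.17 (SE; adjusted p = 0.0144), the bacterial sensor NOD2 by 0.88 ± 0.18 (SE; adjusted p = 0.0351) and its kinase RIPK2 by 0.94 ± 0.19 (SE; adjusted p = 0.0324). TLR6, NOD2 and RIPK2 missed the threshold without the MUG-Chor1 TNF array (adjusted p = 0.0934 to 0.336), and TLR2, TLR6, NOD2 and RIPK2 did so without the U-CH1 TNF array (adjusted p = 0.0622 to 0.394). TLR2, NOD2 and RIPK2 each missed it without at least 1 of U-CH1 controls 1, 2 and 3 and MUG-Chor1 controls 1 and 2 (adjusted p = 0.052 to 0.0868). TLR2 also missed it with array weights or after quantile normalization (adjusted p = 0.0538 to 0.0585).

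Antigen presentation and checkpoint genes rose in 5 of 20 cases (25.0%, against 1.55% of all genes tested) and fell in 0. Their median was 0.61 against 0.05, and 1 of the 20 passed the filter only through the TNF arrays. PDCD1LG2, which encodes the checkpoint ligand PD-L2, read 3.90, 3.88 and 4.28 in the U-CH1 controls and 6.03 with TNF, and 4.40, 3.74 and 4.24 in the MUG-Chor1 controls and 6.68 with TNF. The groups did not overlap in either line, and the shared change was 2.28 ± 0.23 (SE; adjusted p = 0.000939). CD74, the invariant chain of MHC class II, rose evenly by 1.48 ± 0.27 (SE; adjusted p = 0.0201). TAPBP, which loads peptides on MHC class I, rose evenly by 1.34 ± 0.22 (SE; adjusted p = 0.0124) and the peptide transporter gene TAP1 by 1.15 ± 0.27 (SE; adjusted p = 0.0498). CD74 and TAP1 missed the threshold without the MUG-Chor1 TNF array (adjusted p = 0.145 to 0.281), and CD74, TAPBP and TAP1 did so without the U-CH1 TNF array (adjusted p = 0.0833 to 0.188). CD74 and TAP1 each missed it without at least 1 of U-CH1 controls 1 and 2 and MUG-Chor1 controls 1 and 2 (adjusted p = 0.0514 to 0.105). TAP1 also missed it with no filter (adjusted p = 0.0639).

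Tryptophan breakdown along the kynurenine pathway, another group chosen after its values were seen, held 3 rises and 0 falls among 8 tested genes. Over all genes tested 1.55% rose. KMO and IDO1 passed the filter only through the TNF arrays, so the count of rises supports nothing. KYNU, or kynureninase, read 5.01, 6.04 and 5.25 in the U-CH1 controls and 8.16 with TNF, and 5.55, 5.31 and 3.53 in the MUG-Chor1 controls and 7.84 with TNF. It rose evenly by 2.88 ± 0.46 (SE; adjusted p = 0.0109), and MUG-Chor1 control 3 was the lowest of that line's controls. KMO, which hydroxylates kynurenine, rose by 1.98 ± 0.25 (SE; adjusted p = 0.00278) and IDO1, which opens the pathway, by 1.71 ± 0.29 (SE; adjusted p = 0.0132). The IDO1 difference in U-CH1 was 2.41 and that in MUG-Chor1 1.01. WARS1, the tryptophan tRNA ligase, rose evenly by 1.80 ± 0.39 (SE; adjusted p = 0.0396). KYNU and WARS1 missed the threshold without the MUG-Chor1 TNF array (adjusted p = 0.093 to 0.266), and IDO1 and WARS1 did so without the U-CH1 TNF array (adjusted p = 0.114 to 0.117). WARS1 also missed it without any 1 of U-CH1 controls 1, 2 and 3 and MUG-Chor1 controls 1 and 2 (adjusted p = 0.0578 to 0.0888). WARS1 also missed it with no filter (adjusted p = 0.0561).

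Interferon effectors held a single call, 3.1% of the 32 tested and near the 2.48% of all genes. GBP2, a guanylate-binding protein, was the 1 of 32 that was called, an even rise of 2.14 ± 0.26 (SE; adjusted p = 0.00246). U-CH1 had a median difference of 1.35 over the list and MUG-Chor1 one of -0.35. The TNF array lay above the controls in both lines for 3 of the 32, against 15% of all genes tested. OAS2, an antiviral enzyme, differed by 2.68 in U-CH1 and -0.60 in MUG-Chor1, and IFI6 by 3.36 and -0.53. Of the complement genes 2 of 13 rose (15.4%, against 1.55% of all genes tested) and 0 fell. CFB, factor B of the alternative pathway, rose evenly by 2.09 ± 0.27 (SE; adjusted p = 0.00335), and C1QTNF1 unevenly by 1.87 ± 0.34 (SE; adjusted p = 0.0186). C1QTNF1 missed the threshold without the MUG-Chor1 TNF array (adjusted p = 0.227).

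Adhesion molecules of the immunoglobulin family rose in 3 of 26 cases (11.5%) and fell in 1 (3.85%), against 1.55% and 0.93% of all genes tested. Only through the TNF arrays did 2 of the 26 pass the filter. ICAM1, the ligand of leukocyte integrins, read 3.31, 3.35 and 2.85 in the U-CH1 controls and 6.04 with TNF, and 4.55, 4.24 and 6.75 in the MUG-Chor1 controls and 8.83 with TNF. It rose evenly by 3.26 ± 0.53 (SE; adjusted p = 0.0115), with MUG-Chor1 control 3 the highest control. VCAM1, which binds leukocyte integrins, read 2.45, 2.32 and 2.44 and then 4.76 in U-CH1, and 2.65, 2.33 and 1.97 and then 6.27 in MUG-Chor1. Its shared change was 3.16 ± 0.32 (SE; adjusted p = 0.000865), with 2.36 in U-CH1 and 3.95 in MUG-Chor1, and no control overlapped a TNF array. L1CAM rose by 1.12 ± 0.24 (SE; adjusted p = 0.0355) and NCAM2 fell by 1.26 (adjusted p = 0.0201). ICAM1, L1CAM and NCAM2 missed the threshold without the MUG-Chor1 TNF array (adjusted p = 0.115 to 0.356). L1CAM also missed it without any 1 of U-CH1 control 3 and MUG-Chor1 controls 1 and 2 (adjusted p = 0.0552 to 0.0745). L1CAM also missed it after quantile normalization (adjusted p = 0.0564).

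Integrins and laminins split, with 4 rises and 2 falls among 25 (2 and 2 after quantile normalization). ITGA6, the laminin-binding alpha 6 subunit, read 8.33, 8.57 and 8.07 in the U-CH1 controls and 6.74 with TNF, and 8.0, 7.91 and 8.18 in the MUG-Chor1 controls and 6.65 with TNF. It fell evenly by 1.48 (SE 0.20; adjusted p = 0.00383), below every control in both lines. ITGAV, a subunit of vitronectin and fibronectin receptors, rose evenly by 1.00 ± 0.19 (SE; adjusted p = 0.024). ITGA5, the fibronectin receptor subunit, rose by 0.90 ± 0.18 (SE; adjusted p = 0.0312). ITGB3, the partner of ITGAV, rose by 1.49 ± 0.34 (SE; adjusted p = 0.0486) and the laminin chain gene LAMB3 by 1.28 ± 0.30 (SE; adjusted p = 0.0487), while the chain gene LAMA4 fell by 1.43 (adjusted p = 0.0431). ITGAV, ITGA5, ITGB3 and LAMA4 missed the threshold without the MUG-Chor1 TNF array (adjusted p = 0.0918 to 0.545), and ITGAV, ITGA5 and LAMB3 did so without the U-CH1 TNF array (adjusted p = 0.129 to 0.482). ITGAV, ITGA5, ITGB3, LAMB3 and LAMA4 each missed it without at least 1 of U-CH1 controls 1, 2 and 3 and MUG-Chor1 controls 1, 2 and 3 (adjusted p = 0.0514 to 0.101). ITGB3, LAMB3 and LAMA4 each missed it in at least 1 of the fits with array weights, with no filter and after quantile normalization (adjusted p = 0.0514 to 0.0695).

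Of 27 listed serine protease and inhibitor genes 5 rose (18.5%) and 0 fell. Of 30 listed metalloproteinase and TIMP genes 2 rose (6.67%) and 0 fell. The share of rises was 1.55% over all genes tested. Only through the TNF arrays did 1 of the 27 and 3 of the 30 pass the filter. ADAMTS19, a metalloproteinase gene outside these lists, fell by 2.18 (adjusted p = 0.004). PI3, the elastase inhibitor elafin, rose by 3.72 ± 0.58 (SE; adjusted p = 0.00942), with 5.28 in U-CH1 and 2.16 in MUG-Chor1. TFPI2, a Kunitz-type inhibitor, read 3.07, 3.33 and 3.11 in the U-CH1 controls and 5.56 with TNF, and 4.43, 4.05 and 5.85 in the MUG-Chor1 controls and 7.22 with TNF. The shared change of TFPI2 was 2.42 ± 0.37 (SE; adjusted p = 0.00927), with 2.39 in U-CH1 and 2.45 in MUG-Chor1. MMP1, the interstitial collagenase, rose evenly by 1.35 ± 0.25 (SE; adjusted p = 0.0197) and the gelatinase gene MMP9 unevenly by 1.97 ± 0.34 (SE; adjusted p = 0.0161). TFPI2 and MMP1 missed the threshold without the MUG-Chor1 TNF array (adjusted p = 0.069 to 0.109), and MMP1 and MMP9 did so without the U-CH1 TNF array (adjusted p = 0.105 to 0.15).

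Lysosomal genes lay mostly above the controls. The TNF array was above the controls in both lines for 18 of 24 tested members and below them for 0, where 15% and 8.85% of all genes did so. The 4 called members, all rises, were 16.7% of the list, against 1.55% of all genes tested (median 0.61 against 0.05). Only through the TNF arrays did 1 of the 24 pass the filter. CTSS, the protease cathepsin S that degrades the invariant chain, read 4.02, 5.21 and 4.71 in the U-CH1 controls and 7.98 with TNF, and 4.86, 4.70 and 5.32 in the MUG-Chor1 controls and 7.90 with TNF. It rose evenly by 3.14 ± 0.29 (SE; adjusted p = 0.000686) and no control reached the TNF arrays. DRAM1, a lysosomal membrane protein tied to autophagy, rose by 3.04 ± 0.41 (SE; adjusted p = 0.00438), the cholesterol exporter gene NPC1 by 1.00 ± 0.22 (SE; adjusted p = 0.0426) and the peptidase gene TPP1 by 0.98 ± 0.20 (SE; adjusted p = 0.033). Outside the list, and chosen after their values were seen, GNPTAB, which tags enzymes for the lysosome, rose by 1.99 ± 0.25 (SE; adjusted p = 0.00276), the lysosomal chloride transporter gene CLCN7 by 1.20 ± 0.18 (SE; adjusted p = 0.00669) and the autophagy receptor gene SQSTM1 by 1.00 ± 0.20 (SE; adjusted p = 0.0277). DRAM1, NPC1, TPP1, CLCN7 and SQSTM1 missed the threshold without the MUG-Chor1 TNF array (adjusted p = 0.0568 to 0.343), and NPC1, TPP1 and SQSTM1 did so without the U-CH1 TNF array (adjusted p = 0.0864 to 0.257). NPC1, TPP1 and SQSTM1 each missed it without at least 1 of U-CH1 controls 1, 2 and 3 and MUG-Chor1 controls 1 and 2 (adjusted p = 0.0508 to 0.0875).

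Of 36 listed WNT genes 2 rose (5.56%, against 1.55% of all genes tested) and 0 fell. The list's median was -0.04 against 0.05 over all genes, and 3 of the 36 passed the filter only through the TNF arrays. DKK1, which blocks the LRP co-receptors, read 2.07, 2.92 and 1.54 in the U-CH1 controls and 4.39 with TNF, and 2.83, 3.27 and 2.11 in the MUG-Chor1 controls and 5.83 with TNF. SFRP2, which binds WNT ligands, read 2.99, 2.82 and 2.52 and then 5.19 in U-CH1, and 2.86, 3.70 and 2.50 and then 5.59 in MUG-Chor1. Both rose evenly, DKK1 by 2.66 ± 0.38 (SE; adjusted p = 0.0059) and SFRP2 by 2.49 ± 0.28 (SE; adjusted p = 0.0017). LGR6, an R-spondin receptor gene outside the list, fell by 2.55 (adjusted p = 0.000686). In the BMP and TGF-beta pathway 2 of 29 rose (6.9%, against 1.55% of all genes tested) and 0 fell. The activin subunit gene INHBA rose evenly by 1.36 ± 0.22 (SE; adjusted p = 0.0127) and the decoy receptor gene BAMBI unevenly by 2.15 ± 0.39 (SE; adjusted p = 0.0186). DKK1, INHBA and BAMBI missed the threshold without the MUG-Chor1 TNF array (adjusted p = 0.0789 to 0.23). BAMBI also missed it without U-CH1 control 1 (adjusted p = 0.0504).

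Stress and lipid mediator genes added further rises. GDF15, a stress-induced cytokine, read 6.28, 6.07 and 6.50 in the U-CH1 controls and 8.65 with TNF, and 5.45, 4.75 and 5.70 in the MUG-Chor1 controls and 7.75 with TNF. It rose evenly by 2.40 ± 0.25 (SE; adjusted p = 0.000986), with line differences of 2.36 and 2.44. GADD45A, a growth arrest gene, rose by 1.36 ± 0.21 (SE; adjusted p = 0.00943) as the other call among 26 apoptosis and p53 genes. The pair made up 7.69% of that list, against 1.55% of all genes tested. Of 22 prostaglandin and lipid mediator genes 3 rose (13.6%, against 1.55% of all genes tested) and 0 fell. Only through the TNF arrays did 2 of the 22 pass the filter. The phospholipase gene PLA2G4C rose evenly by 2.15 ± 0.22 (SE; adjusted p = 0.000886) and the prostaglandin E synthase gene PTGES unevenly by 2.14 ± 0.42 (SE; adjusted p = 0.0258). HMOX1, or heme oxygenase 1, rose by 1.72 ± 0.30 (SE; adjusted p = 0.0149) as 1 of 3 rises among 27 redox and iron genes (1 after quantile normalization). Those 3 were 11.1% of the list, against 1.55% of all genes tested, and 1 of the 27 passed the filter only through the TNF arrays. GADD45A and PTGES missed the threshold without the MUG-Chor1 TNF array (adjusted p = 0.133 to 0.305), and HMOX1 did so without the U-CH1 TNF array (adjusted p = 0.146). PTGES also missed it without any 1 of U-CH1 controls 1 and 2 and MUG-Chor1 control 1 (adjusted p = 0.0546 to 0.0654).

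Among 19 CCN and YAP-TEAD genes, 1 rose (5.26%) and 2 fell (10.5%), with a median of -0.02. The shares of all genes tested were 1.55% and 0.93%. ANKRD1, a muscle ankyrin repeat protein and usual YAP-TEAD target, read 4.24, 4.20 and 3.60 in the U-CH1 controls and 7.73 with TNF, and 2.36, 2.05 and 3.63 in the MUG-Chor1 controls and 7.22 with TNF. CCN2, the matrix protein connective tissue growth factor and another usual target, read 9.59, 9.12 and 9.02 and then 6.85 in U-CH1, and 7.77, 7.52 and 8.14 and then 4.87 in MUG-Chor1. The targets moved apart in both lines, ANKRD1 rising by 4.13 ± 0.38 (SE; adjusted p = 0.000686) and CCN2 falling by 2.67 (SE 0.24; adjusted p = 0.000686). The cofactor gene YAP1 fell by 0.82 (adjusted p = 0.0426). CCN1, close to CCN2 in function, was not called, at -0.82 in U-CH1 and 0.79 in MUG-Chor1. YAP1 missed the threshold without the MUG-Chor1 TNF array (adjusted p = 0.133) and without the U-CH1 TNF array (adjusted p = 0.285). YAP1 also missed it without any 1 of U-CH1 controls 1, 2 and 3 and MUG-Chor1 controls 1 and 2 (adjusted p = 0.0606 to 0.0919).

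The promoters of ANKRD1 and CCN2 are shown because both hold the TEAD letters while the genes moved in opposite directions. Capitals mark GGAATG in the bases before the annotated start (RefSeq, GRCh38.p14, minus strand, 5′ to 3′). These genes were chosen for display after no window of an evenly changed gene was found to hold a CArG box.
ANKRD1 (chr10:90921088-90921337, minus strand): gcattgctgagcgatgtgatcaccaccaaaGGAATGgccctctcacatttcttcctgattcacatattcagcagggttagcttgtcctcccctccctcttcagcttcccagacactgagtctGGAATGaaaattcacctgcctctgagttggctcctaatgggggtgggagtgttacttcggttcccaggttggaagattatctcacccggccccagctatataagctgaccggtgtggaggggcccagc
CCN2 (chr6:131951373-131951622, minus strand): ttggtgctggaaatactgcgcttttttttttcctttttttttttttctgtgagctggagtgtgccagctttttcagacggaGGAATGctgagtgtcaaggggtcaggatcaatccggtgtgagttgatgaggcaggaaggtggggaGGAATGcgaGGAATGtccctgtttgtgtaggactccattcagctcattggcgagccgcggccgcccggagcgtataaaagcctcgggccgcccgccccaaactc
ANKRD1 holds 2 matches and CCN2 holds 3, the last of them ending 123 and 90 bases before the start. The CCN2 window also holds an NF-kB consensus match.

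Immediate early transcription factor genes, which answer growth signals within minutes, gave falls and no called rise. Of 24 tested, 4 fell (5 after quantile normalization) and 0 rose, and the median was -0.49 against 0.05. The 4 falls were 16.7% of the list, against 0.93% of all genes tested. The TNF array lay below the controls in both lines for 12 of the 24, against 8.85% of all genes tested. FOSB, an AP-1 subunit, read 7.13, 6.28 and 7.94 in the U-CH1 controls and 3.22 with TNF, and 8.34, 8.35 and 8.23 in the MUG-Chor1 controls and 3.66 with TNF. It was the deepest evenly shared fall at 4.28 (SE 0.35; adjusted p = 0.000487), and every control lay well above the TNF arrays. Its relative FOS read 6.79, 6.10 and 7.08 and then 3.56 in U-CH1, and 7.10, 7.82 and 8.34 and then 2.84 in MUG-Chor1, a shared fall of 4.00 (SE 0.43; adjusted p = 0.00113). KLF2 fell evenly by 1.74 (adjusted p = 0.0396) and the orphan nuclear receptor gene NR4A2 by 2.16 (adjusted p = 0.049). EGR1 was not called, at -0.58 in U-CH1 and -4.72 in MUG-Chor1 (adjusted p = 0.068). KLF2 and NR4A2 missed the threshold without the MUG-Chor1 TNF array (adjusted p = 0.274 to 0.281) and without the U-CH1 TNF array (adjusted p = 0.112 to 0.171). KLF2 and NR4A2 each missed it without at least 1 of U-CH1 controls 1, 2 and 3 and MUG-Chor1 controls 1 and 2 (adjusted p = 0.0699 to 0.101). KLF2 and NR4A2 each missed it in at least 1 of the fits with array weights, with no filter and with robust variances (adjusted p = 0.056 to 0.0729).

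Of the ERK feedback and ETV genes 1 of 21 rose and 1 fell (4.76% each way, against 1.55% and 0.93% of all genes tested). ETV1, an ETS transcription factor, fell by 2.63 (SE 0.40; adjusted p = 0.00755), with -1.51 in U-CH1 and -3.75 in MUG-Chor1, and the phosphatase gene DUSP10 rose by 1.47 ± 0.28 (SE; adjusted p = 0.0229). MAP2K6, a kinase that activates p38, fell evenly by 2.24 (adjusted p = 0.0131). Of 22 Notch genes 0 were called, and 3 had an unadjusted p under 0.05 (1 higher, 2 lower). Over all 16986 genes tested, 1677 were higher and 925 lower at that unadjusted level. HES1, a target of Notch, was not called at -2.71 (adjusted p = 0.054). It passed without the U-CH1 TNF array (adjusted p = 0.00984), without U-CH1 control 2 (0.0435), after quantile normalization (0.0472) and for the mean of line effects (0.0128). DUSP10 and MAP2K6 missed the threshold without the MUG-Chor1 TNF array (adjusted p = 0.0547 to 0.0835) and without the U-CH1 TNF array (adjusted p = 0.0652 to 0.189). DUSP10 also missed it without any 1 of U-CH1 control 1 and MUG-Chor1 control 1 (adjusted p = 0.0534 to 0.057).

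MYL1, a myosin light chain of fast muscle, was another of the deepest falls. It read 8.59, 9.18 and 8.93 in the U-CH1 controls and 4.76 with TNF, and 8.10, 7.30 and 6.81 in the MUG-Chor1 controls and 3.73 with TNF. The fall of 3.90 (SE 0.31; adjusted p = 0.000487) was the 1 call among 30 contractile and smooth muscle genes (3.33%, near the 2.48% of all genes tested). SCUBE1, a secreted and cell surface EGF-like protein, fell by 3.02 (SE 0.25; adjusted p = 0.000487), from 5.64, 5.32 and 5.91 to 3.03 in U-CH1 and from 6.42, 6.74 and 6.27 to 3.03 in MUG-Chor1. LGR6, a receptor for R-spondins, fell by 2.55, the receptor phosphatase gene PTPRD by 2.47, the phosphoinositide phosphatase gene MTMR7 by 2.33, the metalloproteinase gene ADAMTS19 by 2.18 and the growth hormone receptor gene GHR by 2.04. These falls were even, with adjusted p from 0.000686 for LGR6 to 0.0103 for PTPRD. ADAMTS19 missed the threshold without the MUG-Chor1 TNF array (adjusted p = 0.0551), and PTPRD did so without the U-CH1 TNF array (adjusted p = 0.0712).

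**Figure D3:**
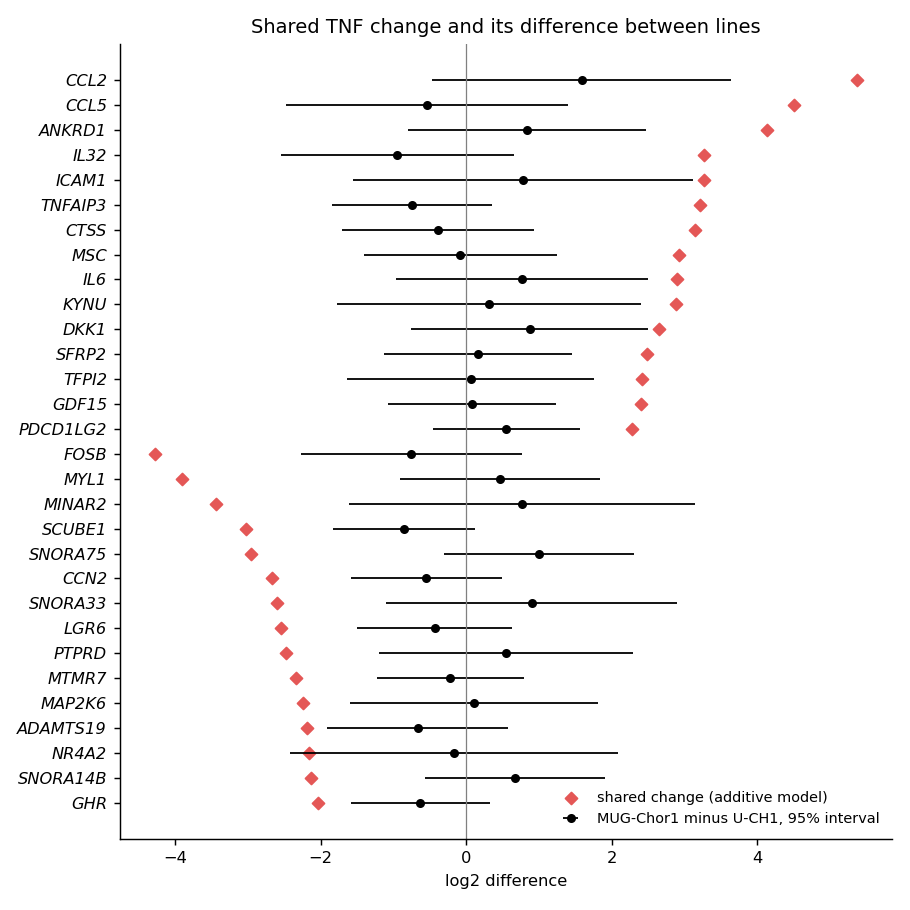
Shared change from the additive model (red diamonds) and difference of the TNF effects, MUG-Chor1 minus U-CH1, with its 95% interval (black points and bars), for the 15 largest evenly shared rises and falls (log2, x axis). Every bar crosses 0, and for many genes the bar is as long as the shared change or longer, so equal changes are not shown.

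Notochord and chordoma markers fell in 3 of 18 cases (4 after quantile normalization) and rose in 0 (median -0.76 against 0.05), and none of the falls was even. The 3 falls were 16.7% of the list, against 0.93% of all genes tested. Fewer cells with a marker and less RNA per cell cannot be told apart in these bulk samples. TBXT, or brachyury, read 9.56, 9.14 and 9.75 in the U-CH1 controls and 8.80 with TNF, and 9.46, 9.44 and 9.40 in the MUG-Chor1 controls and 7.51 with TNF. The TNF array was below every control in both lines, and the shared fall was 1.30 (SE 0.27; adjusted p = 0.0344). KRT19, a simple keratin, fell by 2.06 (SE 0.35; adjusted p = 0.0147), with -1.03 in U-CH1 and -3.08 in MUG-Chor1. SOX5, a chondrogenic factor, fell by 1.69 (adjusted p = 0.0249). All 8 chordoma markers used to check the lines lay above the overall median of 2.57 on every control array. Their summed level (log2) was 11.7 to 12.1 in the controls, 11.2 on the U-CH1 TNF array and 9.16 on the MUG-Chor1 TNF array. TBXT, KRT19 and SOX5 missed the threshold without the MUG-Chor1 TNF array (adjusted p = 0.0901 to 0.423). TBXT and SOX5 each missed it without at least 1 of U-CH1 controls 1 and 3 and MUG-Chor1 controls 1 and 2 (adjusted p = 0.0509 to 0.0792).

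Some cartilage matrix genes fell as well. Of 24 aggregate and link protein genes 3 fell (12.5%, against 0.93% of all genes tested) and 0 rose, although the median was 0.01. HAPLN1, the link protein, read 8.13, 8.0 and 8.42 in the U-CH1 controls and 7.05 with TNF, and 6.55, 6.45 and 6.80 in the MUG-Chor1 controls and 3.13 with TNF. It fell by 2.30 (SE 0.40; adjusted p = 0.0162), more in MUG-Chor1. ACAN, or aggrecan, fell by 2.43 (adjusted p = 0.0482), with -0.78 in U-CH1 and -4.09 in MUG-Chor1. Of 13 small leucine-rich proteoglycans 3 fell (23.1%) and 1 rose (7.69%), against 0.93% and 1.55% of all genes tested. FMOD, or fibromodulin, which regulates collagen fibrils, fell evenly by 2.01 (SE 0.28; adjusted p = 0.005). Its neighbour PRELP fell by 2.69 (adjusted p = 0.00649), and EPYC, or epiphycan, by 3.06 (adjusted p = 0.0225), with -4.70 in U-CH1 and -1.43 in MUG-Chor1. COL6A3 fell by 1.83 (SE 0.22; adjusted p = 0.00245) as the 1 fall among 32 collagen and crosslinking genes, beside the rise of LOXL2 by 1.17 ± 0.24 (SE; adjusted p = 0.0337). Each was 3.1% of the list, against 0.93% lower and 1.55% higher over all genes tested. HAPLN1, ACAN, PRELP and LOXL2 missed the threshold without the MUG-Chor1 TNF array (adjusted p = 0.0598 to 0.463), and EPYC and LOXL2 did so without the U-CH1 TNF array (adjusted p = 0.061 to 0.146). ACAN, EPYC and LOXL2 each missed it without at least 1 of U-CH1 controls 1, 2 and 3 and MUG-Chor1 controls 1, 2 and 3 (adjusted p = 0.0509 to 0.0975). ACAN also missed it with no filter or with robust variances (adjusted p = 0.0543 to 0.0718).

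Small nucleolar RNA genes, which guide chemical marks on ribosomal and spliceosomal RNA, fell in 9 of 160 cases and rose in 0 (8 and 0 after quantile normalization), with a median of -0.14. The 9 falls were 5.6% of the list, against 0.93% of all genes tested. SNORA75 read 9.54, 9.45 and 8.68 in the U-CH1 controls and 5.76 with TNF, and 9.48, 8.86 and 8.56 in the MUG-Chor1 controls and 6.51 with TNF. It fell evenly by 2.96 (SE 0.32; adjusted p = 0.00131), SNORA33 by 2.6 (adjusted p = 0.0171), SNORA14B by 2.14 (adjusted p = 0.00438) and SNORA72 unevenly by 2.54 (adjusted p = 0.00422). By annotated gene type, 5.77% of tested snoRNA genes were called, against 2.76% of protein-coding genes and 0.228% of miRNA genes. SNORA75 and SNORD20, which also fell, are adjacent, and the identity of such short genes inside a host transcript is uncertain on an array. SNORA33 missed the threshold without the MUG-Chor1 TNF array (adjusted p = 0.0502) and without the U-CH1 TNF array (adjusted p = 0.132).

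**Figure D4:**
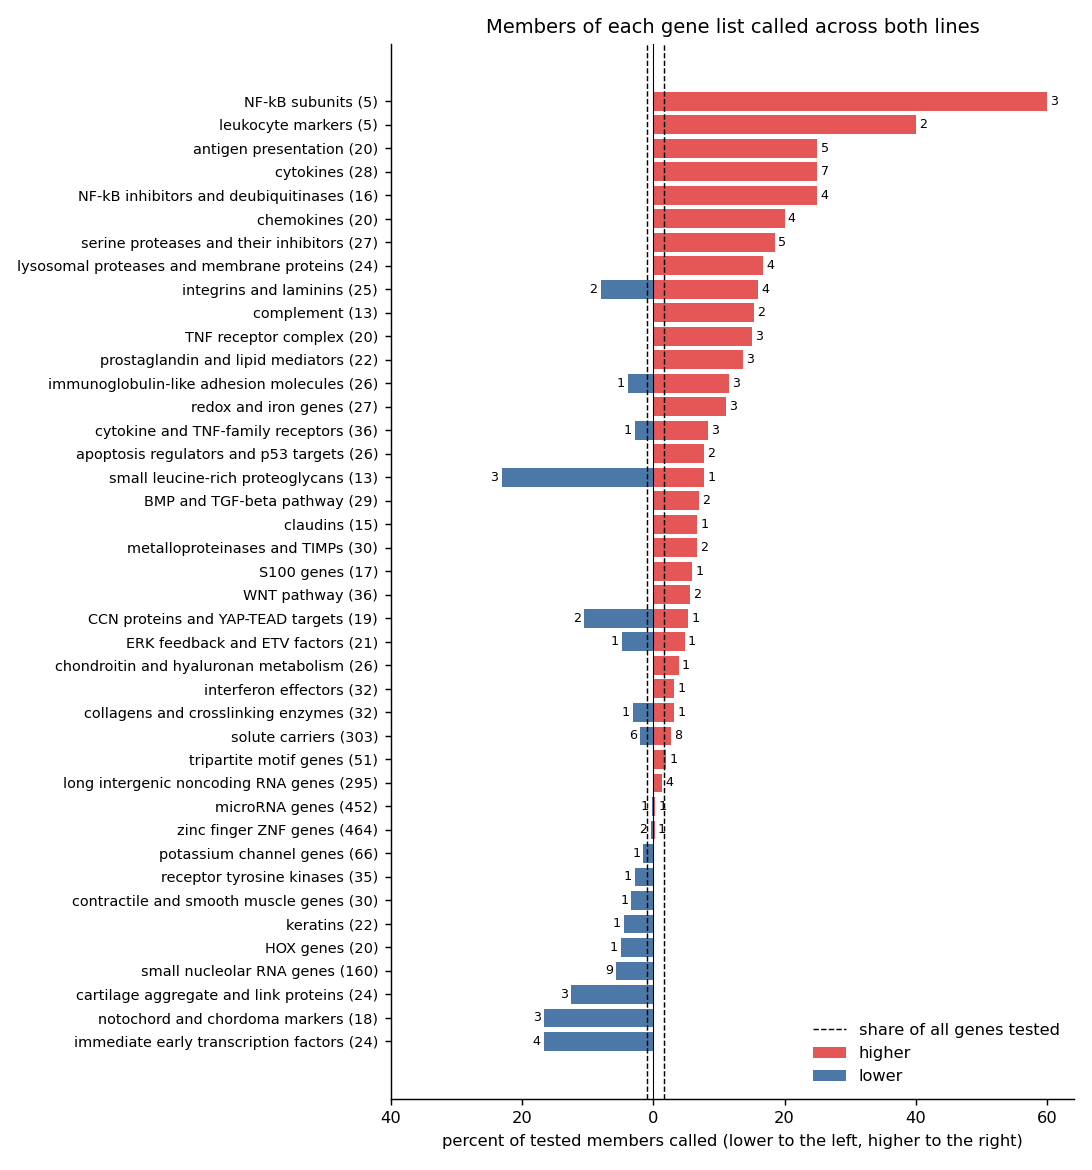
Percent of tested members called lower (blue, left of 0) and higher (red, right of 0) across both lines for each gene list with a call, with the number tested in brackets and the number called beside each bar. Dashed lines mark the shares over all genes tested, 0.93% lower and 1.55% higher; NF-kB subunits reach 3 of 5 higher and immediate early factors 4 of 24 lower.

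Cell cycle lists held no call. Of 23 G2/M genes 0 were called by limma, 7 were lower at an unadjusted p under 0.05 and 8 lay below the controls in both lines, with a median of -0.15 in U-CH1 and -1.12 in MUG-Chor1. Over all 16986 genes tested, 1677 were higher and 925 lower at that unadjusted level. Of all genes 8.85% lay below the controls in both lines. KIF11, a mitotic kinesin, had the smallest p, at -0.78 (limma adjusted p = 0.196). Of 22 G1/S genes 0 were called by limma and 2 passed at an unadjusted p under 0.05 (1 higher, 1 lower), led by the replication helicase gene MCM6 at -0.64 (adjusted p = 0.113).

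How far the response of 1 line recurred in the other was described separately, since the lines share no array. The 100 strongest rises in U-CH1, ranked by moderated t within U-CH1 alone, had a median of 2.29 there and 0.72 in MUG-Chor1. Of them 76 had a positive difference in MUG-Chor1 and 63 lay above all 3 MUG-Chor1 controls, where 56.7% and 35.3% of all genes did so. Of the 100 strongest U-CH1 falls 79 were negative in MUG-Chor1 and 70 lay below all controls, against 43.3% and 23.9% of all genes. In the other direction 83 of the 100 strongest MUG-Chor1 rises were positive in U-CH1 and 69 lay above all controls, against 53.7% and 30.8%. Of the MUG-Chor1 falls 85 were negative in U-CH1 and 78 lay below all controls, against 46.3% and 23.4%. The differences shrank on the way, from a median of -1.72 to -0.78 for U-CH1 falls, from 2.44 to 0.50 for MUG-Chor1 rises and from -2.48 to -0.78 for MUG-Chor1 falls.

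Both lists of 100 rises held 14 genes in common. They were ANKRD1, CCL2, CTSS, DCBLD2, DRAM1, FDCSP, GPRC5B, IRAK2, MSC, NUAK2, PDCD1LG2, TNFAIP3, USP30-AS1 and VCAM1. The 17 falls in common were CCN2, COL6A3, ETV1, FMOD, FOS, FOSB, GHR, LGR6, MTMR7, MYL1, PIK3C2B, PPL, PRELP, SAMD5, SCUBE1, TRIL and ZNF385B. No gene was among the 100 rises of 1 line and the 100 falls of the other. Unrelated lists this short, drawn from all genes tested, would also share few genes or none, so that absence says little by itself. Whether the overlaps of 14 and 17 exceed those of unrelated lists was not tested. MSC, the transcriptional repressor musculin, read 2.30, 2.08 and 2.77 in the U-CH1 controls and 5.35 with TNF, and 3.93, 3.68 and 2.82 in the MUG-Chor1 controls and 6.36 with TNF. It rose by 2.93 ± 0.29 (SE; adjusted p = 0.000832), and both TNF arrays stood above all controls. Across all genes tested the line differences correlated at r = 0.370 (rho = 0.315), a description over genes that share arrays within each line and are not independent, and 61.0% had the same sign.

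**Figure D5:**
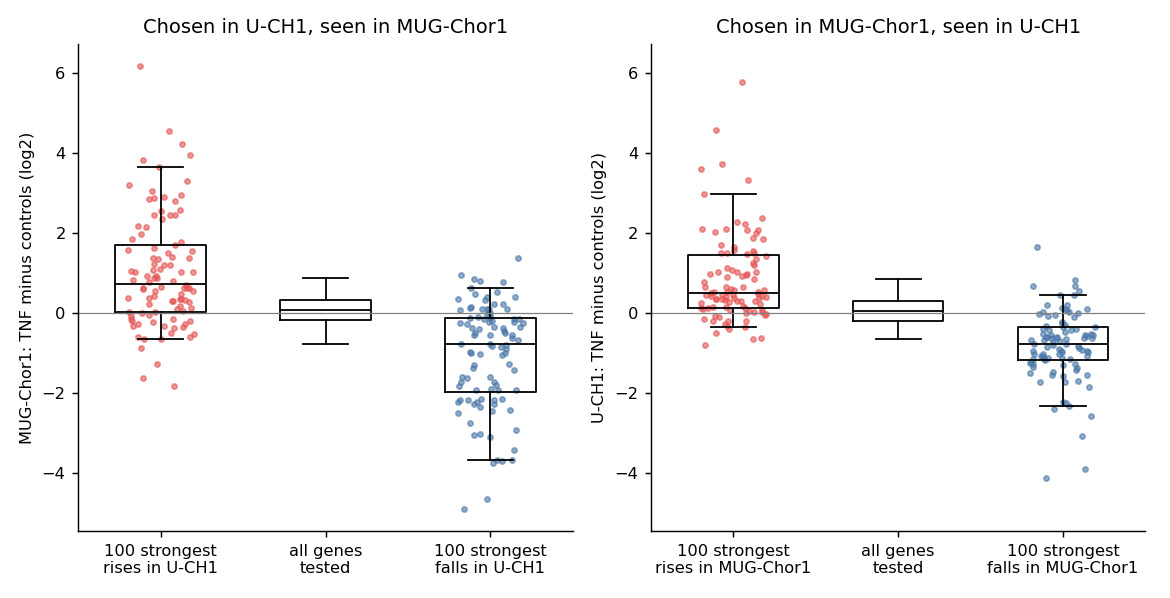
TNF minus control difference (log2, y axis) in MUG-Chor1 of the 100 strongest U-CH1 rises and falls (left) and in U-CH1 of the 100 strongest MUG-Chor1 rises and falls (right), beside all genes tested. Points are genes, boxes span the quartiles around the median line and whiskers the 5th to 95th percentile; medians are 0.72 and -0.78 on the left and 0.50 and -0.78 on the right, while all genes centre near 0.

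Some genes crossed the overall median of 2.57 in both lines. For 35 genes all 6 controls lay below it and both TNF arrays above it, and 13 of these were called. FDCSP, a secreted peptide of follicular dendritic cells, read 1.26, 1.5 and 0.96 in the U-CH1 controls and 7.02 with TNF, and 1.00, 1.18 and 1.12 in the MUG-Chor1 controls and 3.97 with TNF. It rose by 4.32 ± 0.48 (SE; adjusted p = 0.00149), with 5.78 in U-CH1 and 2.87 in MUG-Chor1, a difference of -2.91 (95% interval -3.80 to -2.01; adjusted p = 0.0152). TNFRSF9, the costimulatory receptor 4-1BB, read 2.39, 2.07 and 2.19 and then 4.65 in U-CH1, and 1.54, 1.62 and 2.52 and then 3.58 in MUG-Chor1, a rise of 2.06 ± 0.28 (SE; adjusted p = 0.00471). The ligand gene TNFSF18 rose by 1.49 ± 0.30 (SE; adjusted p = 0.031), beside KMO, IDO1, IL1B and NOD2 above. Such genes passed the filter only through the TNF arrays, as did 17 called genes in all, so their number supports nothing, and near the floor log2 differences understate a change. For 30 genes all controls lay above the median and both TNF arrays below it, and 6 of these were called. MINAR2 fell furthest, by 3.44 (SE 0.54; adjusted p = 0.00945), from 5.63, 5.98 and 6.90 to 2.35 in U-CH1 and from 3.68, 3.81 and 5.93 to 1.42 in MUG-Chor1. The cadherin gene CDH6 fell by 1.17 (adjusted p = 0.0276). CDH6 missed the threshold without the MUG-Chor1 TNF array (adjusted p = 0.305), and TNFSF18 and MINAR2 did so without the U-CH1 TNF array (adjusted p = 0.0645 to 0.301). TNFSF18 and CDH6 each missed it without at least 1 of U-CH1 controls 1 and 2 and MUG-Chor1 controls 1 and 2 (adjusted p = 0.0534 to 0.0743). TNFSF18 also missed it with array weights (adjusted p = 0.0507).

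Called genes were sometimes neighbours in the genome. Of 16443 pairs of adjacent tested genes 26 (0.158%) were both called, 16 pairs higher, 8 lower and 2 opposite. Of single genes 2.48% were called, so some such pairs would arise in any order of genes. Whether called genes cluster was not tested. Higher pairs included GNPTAB with DRAM1, NOD2 with CYLD, and TLR2 with SFRP2, and lower pairs FMOD with PRELP and HAPLN1 with EDIL3. In the ABCA transporter cluster on chromosome 17, chosen after its values were seen, 3 of 5 tested genes rose, ABCA9 by 1.88 ± 0.24 (SE; adjusted p = 0.00339), ABCA6 by 1.58 ± 0.35 (SE; adjusted p = 0.0433) and ABCA10 by 1.34 ± 0.28 (SE; adjusted p = 0.0344). Over all genes tested, 1.55% were called higher. The opposite pairs were YAP1 with BIRC2 and NCAM2 with LINC00515. For the antisense pairs IL6 with IL6-AS1, MSC with MSC-AS1 and ZFHX4 with ZFHX4-AS1 the partners' signals may not be separable, and this was not tested. ABCA6 and ABCA10 missed the threshold without the MUG-Chor1 TNF array (adjusted p = 0.103 to 0.253) and without the U-CH1 TNF array (adjusted p = 0.151 to 0.235). ABCA6 and ABCA10 each missed it without at least 1 of U-CH1 controls 1, 2 and 3 and MUG-Chor1 controls 1 and 2 (adjusted p = 0.0514 to 0.0907). ABCA6 and ABCA10 each missed it in at least 1 of the fits with array weights, with no filter and after quantile normalization (adjusted p = 0.0529 to 0.0687).

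Markers of other cell types were read beside these results. Of 5 tested leukocyte markers 2 were called higher, CD68 by 0.84 ± 0.19 (SE; adjusted p = 0.0485) and ITGAM by 0.82 ± 0.18 (SE; adjusted p = 0.0448). PTPRC, CD3E, CD163 and CD52 lay below the overall median on all 8 arrays. The summed leukocyte level (log2) was 7.90 to 8.4 in the controls and 8.68 and 9.27 on the U-CH1 and MUG-Chor1 TNF arrays. Most of that sum was CD68, which read 7.67 to 8.25 in the controls and 8.48 and 9.17 on those TNF arrays. Of 6 fibroblast markers 0 were called by limma and 2 were higher at an unadjusted p under 0.05, and their sum was 6.86 to 9.87 in the controls and 9.72 and 10.7 with TNF. LUM, or lumican, made up most of that sum with TNF, at 9.53 in U-CH1 and 10.6 in MUG-Chor1. It differed by 3.65 in MUG-Chor1 and 0.19 in U-CH1 (shared adjusted p = 0.162). FAP, another fibroblast marker that was not called, read 1.98, 2.29 and 1.64 in the MUG-Chor1 controls and 5.71 with TNF. In U-CH1 FAP read 1.92, 1.99 and 1.96 in the controls and 1.75 with TNF. Of 5 endothelial markers 0 were called by limma and 1 was lower at an unadjusted p under 0.05, and their sum was 5.68 to 7.77 in the controls and 5.77 on both TNF arrays. KDR was the highest endothelial marker, at 7.52, 7.19 and 6.5 in the MUG-Chor1 controls and 4.7 on the MUG-Chor1 TNF array. Over all 16986 genes tested, 1677 were higher and 925 lower at that unadjusted level. The part of other cell types in the results was not tested. CD68 and ITGAM missed the threshold without the MUG-Chor1 TNF array (adjusted p = 0.136 to 0.383) and without the U-CH1 TNF array (adjusted p = 0.102 to 0.298). CD68 and ITGAM each missed it without at least 1 of U-CH1 controls 1, 2 and 3 and MUG-Chor1 controls 1, 2 and 3 (adjusted p = 0.0614 to 0.0961). CD68 and ITGAM each missed it with array weights (adjusted p = 0.0538 to 0.0576).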

How the data were processed

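Total RNA of U-CH1 and MUG-Chor1 was extracted with Trizol, converted to biotin-labelled single-stranded cDNA and hybridised to whole-transcript arrays, per the labels' protocols. The authors deposited RMA values, taken here as log2 signals; the submitters' processing notes name RMA and Transcriptome Analysis Console without versions, and no source used here gives the annotation's genome build. RMA corrects background, normalizes between arrays and summarises probes, so levels of different genes are not comparable. Of 53617 probe sets 23871 had 1 symbol, 1842 several and 27904 none in the table used. The probe set with the brightest mean was kept for each of 22395 genes, and 16986 genes above 2.57 (the median of all values) on at least 1 array were tested with limma 3.58.1 (R 4.3.3), as an additive model of line and TNF with 5 residual degrees of freedom. A model of 4 group means gave the line differences and their 95% intervals. P-values were Benjamini-Hochberg adjusted over all genes tested, and a gene was called under 0.05.

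On simulated data with 16986 genes the additive model recovered 36% of changes of 1 and 95% of changes of 2 on the log2 scale, with 1.5% of calls false. The simulation gave both TNF arrays the same change, with independent noise and no difference between lines. These shares therefore do not carry over to the real arrays, where many called genes changed unevenly. The rule for named genes took the 15 largest evenly shared rises and falls, up to 4 called members per list (or the smallest p), up to 3 per symbol family, the genes with the smallest adjusted p, and TNF, TNFRSF1A, NFKBIA, TNFAIP3 and TBXT. Members, lists and groups were chosen with earlier results of these data known. Genes outside the rule were chosen after their values were seen: CXCL10, IL1RN, IL1B, OAS2, IFI6, ITGAV, ITGA5, TAP1, EGR1, CCN1, FDCSP, TNFSF18, CDH6, SNORA72 and those marked so in the text. Alternatives covered the filter, the probe set rule, quantile normalization, the variance model, array weights, the model of line effects, the threshold and each array left out. Promoters came from RefSeq (GRCh38.p14).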

Additional observations from a re-analysis of the deposited data

Results flagged for a closer look

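The TNF effect differed between the lines in 90 of 16986 genes tested (0.53%, limma, adjusted p under 0.05) and in 9 of the 422 shared calls. The difference, MUG-Chor1 minus U-CH1, was 3.94 for the cytokine gene IL36B (95% interval 2.63 to 5.26; limma adjusted p = 0.0211). It was -2.05 for the keratin gene KRT19 (-2.83 to -1.27; adjusted p = 0.0364), -3.31 for ACAN, or aggrecan (-4.41 to -2.21; adjusted p = 0.0211), and -2.34 for the link protein gene HAPLN1 (-3.23 to -1.45; adjusted p = 0.0358). For SLC15A5, a solute carrier gene, it was -2.19 (-3.0 to -1.39; adjusted p = 0.0322). FDCSP, a secreted peptide gene, had the smallest adjusted p of the 9 and the larger effect in U-CH1, at -2.91 (-3.80 to -2.01; adjusted p = 0.0152). The others were INA, an intermediate filament gene, at 3.53 (adjusted p = 0.0472), the peptidase gene MME at 3.37 (adjusted p = 0.0488) and SNORA70F at -2.21 (adjusted p = 0.032). Apart from FDCSP, the effect was larger in MUG-Chor1 for each of them. Each difference rests on 1 TNF array per line.

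Probe sets outside the gene analysis also changed. In a fit over all probe sets, 42 of 13736 tested probe sets that the annotation table does not list were called higher and 34 lower (0.553% called), and of 1502 with several symbols 5 were called higher and 2 lower (0.466%). Of 18052 probe sets with 1 symbol 92 were called higher and 53 lower (0.803%) in the same fit. Their genes are not named here.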

How the results depend on the processing

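No paired analysis was possible because the TNF arrays carry no replicate number and each TNF group is 1 array. Leaving out each array in turn gave 199 to 489 called genes, 127 to 286 higher, 61 to 239 lower and 103 to 211 evenly changed; the last count needs both TNF arrays. The mean of the line effects in the model of 4 groups gave 739 calls (462 higher, 277 lower), the 422 included, and an adjusted p under 0.01 gave 99 (60 higher, 39 lower). At a ratio of 0.5, 319 genes counted as evenly changed. Quantile normalization gave 391 calls, 355 of them among the 422, and moved the median difference of all genes from 0.05 to 0.00. Array weights gave 343, no filter 340, a filter on the mean 439, the mean of probe sets 426, a robust variance 421 and a variance trend 445. Without control arrays in turn, 179 of the 422 kept the call each time (111 higher, 68 lower, 99 evenly changed). Of 115 called named genes 60 missed the threshold without the MUG-Chor1 TNF array, 42 without the U-CH1 TNF array, 43 without some control and 20 in a fit that kept all arrays at that threshold. Without the U-CH1 TNF array the sign turned for TNF (-0.33) and NFKBIA (-0.15), which were not called with all arrays (0.38 and 0.93) and read 1.10 and 2.00 without the MUG-Chor1 TNF array. Under their alternatives the same-sign shares of the followed genes ran from 73% to 94% and the correlation between lines from 0.348 to 0.389; neither was run without a TNF array, which leaves 1 line. At 1 TNF array per line, changes near 1 on the log2 scale were often missed in the simulated data.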

Other observations

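Gene families defined by symbol were read against the 2.48% of all genes that were called. Of 303 solute carrier genes 8 rose and 6 fell (4.62%). SLC2A6, a lysosomal glucose transporter family member, read 4.86, 4.35 and 4.64 in the U-CH1 controls and 6.19 with TNF, and 4.42, 4.6 and 4.74 in the MUG-Chor1 controls and 6.45 with TNF, an even rise of 1.72 ± 0.20 (SE; adjusted p = 0.00195) that passed whichever array was left out. SLC16A14 fell by 1.66 (limma adjusted p = 0.0213). Of 464 zinc finger genes with a ZNF symbol 1 rose and 2 fell (0.647%), led by ZNF385B, which fell by 2.49 (SE 0.26; adjusted p = 0.00113). KCNK2, a potassium leak channel gene, fell by 1.91 (adjusted p = 0.00986) as the 1 call of 66 potassium channel genes. CLDN1, a tight junction protein gene, rose evenly by 2.24 ± 0.43 (SE; adjusted p = 0.0249) as the 1 call of 15 claudins, and the homeobox gene HOXA2 fell by 1.44 (adjusted p = 0.0165) as the 1 call of 20. KCNK2, CLDN1 and HOXA2 missed the threshold without the MUG-Chor1 TNF array (adjusted p = 0.104 to 0.225), and SLC16A14 and CLDN1 did so without the U-CH1 TNF array (adjusted p = 0.0867 to 0.216). SLC16A14 and CLDN1 each missed it without at least 1 of U-CH1 controls 1 and 2 and MUG-Chor1 control 1 (adjusted p = 0.0518 to 0.0589).

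Of 295 long intergenic noncoding genes 4 rose (1.36%, near the 1.55% of all genes) and none fell, LINC00472 by 1.47 ± 0.25 (SE; adjusted p = 0.0144) and LINC01002 by 1.30 ± 0.25 (SE; adjusted p = 0.0252). MIR99AHG, a host gene of microRNAs, fell evenly by 1.55 (SE 0.19; adjusted p = 0.00242), and the microRNA gene MIR500A rose evenly by 1.09 ± 0.20 (SE; adjusted p = 0.02); these were the 2 calls of 452 (0.442%). Among receptor tyrosine kinases EPHA4 fell by 0.96 (adjusted p = 0.0485) as the 1 call of 35 (2.86%, near the 2.48% of all genes tested). TSKU, or tsukushi, rose by 1.25 ± 0.23 (SE; adjusted p = 0.0201) as the 1 rise among the small leucine-rich proteoglycans. LINC01002, MIR500A, EPHA4 and TSKU missed the threshold without the MUG-Chor1 TNF array (adjusted p = 0.0531 to 0.212), and LINC00472, LINC01002, MIR500A and EPHA4 did so without the U-CH1 TNF array (adjusted p = 0.099 to 0.317). LINC01002, MIR500A and EPHA4 each missed it without at least 1 of U-CH1 controls 1, 2 and 3 and MUG-Chor1 controls 1 and 3 (adjusted p = 0.0526 to 0.0941). EPHA4 also missed it with array weights or with no filter (adjusted p = 0.055 to 0.0777).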
